A study of Mus musculus with 16 samples.

Results

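The circadian clock genes measured here were Clock, Arntl, Per1, Per2, Per3, Nr1d1, Nr1d2, Dbp, Tef and Ciart, 10 genes of the 16737 named genes tested in mouse cerebellum. A probe belonged to them when it was not a control and its transcript accession named one of these genes, which gave 21 of 56605 probes. RNA from 20 mg of cerebellar cortex of each of 16 mice was read on 16 Agilent arrays of 1 colour, 4 in each of 4 groups, on which a brighter spot means more RNA of the matching transcript. All mice came from the strain B6;129S4-Atmtm1Bal/J, were labelled male, were 3.5 months old and lived under 12 h of light and 12 h of dark. The hour at which tissue was taken is not given in the sources used here.

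WT veh mice were wild-type littermates that drank water alone, and WT NR mice were wild-type littermates whose water held 12 mM nicotinamide riboside (NR), or 3.5 mg/ml, for 2 months from 6 weeks of age. Atm-/- veh and Atm-/- NR mice were homozygous for the targeted Atm allele and drank water alone or the same NR. Atm encodes a kinase that signals DNA breaks, its loss affects every cell of the animal, and NR is a precursor of NAD+.

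The clock of a mammalian cell is a loop of transcription. CLOCK and the product of Arntl (BMAL1) bind E-boxes in the promoters of the Per genes, Ciart, Nr1d1, Nr1d2, Dbp and Tef, and the PER proteins and CIART then hold that activator back. NR1D1 and NR1D2 (REV-ERB alpha and beta) repress Arntl through ROR elements, and DBP and TEF activate genes through D-boxes. The loop also drives Nampt, which encodes the enzyme that limits the salvage of NAD+, and the cerebellum is one of the tissues outside the suprachiasmatic nucleus in which the clock genes are expressed.

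Promoters of genes whose levels changed or varied together are shown because they carry the elements through which this loop is read. Each window of 300 bases runs from 250 before to 50 after a transcript start and is taken from RefSeq (GRCm38.p6), which matched 9 of the 10 genes, all but Per2, with 14 windows. Capitals mark 5 motifs searched on both strands, where N is any letter. They are the E-box CACGTG, the related CACGTT, the D-box TTATGNAA, TNGGTCA as a loose form of the ROR element core, and a CRE core TGACG. None of the 5 overlaps another in the windows printed here.
Ciart (chr3:95882179-95882478, - strand): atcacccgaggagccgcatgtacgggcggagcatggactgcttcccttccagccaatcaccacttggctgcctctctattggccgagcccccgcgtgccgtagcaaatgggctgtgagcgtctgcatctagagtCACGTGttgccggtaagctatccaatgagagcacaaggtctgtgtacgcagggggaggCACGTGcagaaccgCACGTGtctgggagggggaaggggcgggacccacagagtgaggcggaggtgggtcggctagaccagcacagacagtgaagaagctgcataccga
Per1, upstream start (chr11:69098699-69098998, + strand): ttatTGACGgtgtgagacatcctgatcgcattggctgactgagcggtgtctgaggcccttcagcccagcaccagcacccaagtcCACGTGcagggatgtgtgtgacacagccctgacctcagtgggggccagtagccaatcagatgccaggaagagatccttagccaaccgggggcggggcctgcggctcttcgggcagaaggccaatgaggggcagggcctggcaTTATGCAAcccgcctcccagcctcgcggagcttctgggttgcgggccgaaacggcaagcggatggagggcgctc
Per3 (chr4:151044616-151044915, - strand): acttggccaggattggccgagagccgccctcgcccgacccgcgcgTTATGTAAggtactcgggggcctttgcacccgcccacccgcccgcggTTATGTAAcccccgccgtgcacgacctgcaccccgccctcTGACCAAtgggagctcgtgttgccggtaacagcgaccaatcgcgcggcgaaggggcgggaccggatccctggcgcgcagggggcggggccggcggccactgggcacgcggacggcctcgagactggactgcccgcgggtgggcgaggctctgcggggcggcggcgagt
Tef, upstream start (chr15:81802423-81802722, + strand): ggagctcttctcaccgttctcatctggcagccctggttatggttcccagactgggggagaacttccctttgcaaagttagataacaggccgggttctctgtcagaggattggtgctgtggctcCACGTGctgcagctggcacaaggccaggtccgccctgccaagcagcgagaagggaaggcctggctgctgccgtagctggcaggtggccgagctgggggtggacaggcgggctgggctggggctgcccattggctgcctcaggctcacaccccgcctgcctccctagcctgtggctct
Tef, downstream start (chr15:81811164-81811463, + strand): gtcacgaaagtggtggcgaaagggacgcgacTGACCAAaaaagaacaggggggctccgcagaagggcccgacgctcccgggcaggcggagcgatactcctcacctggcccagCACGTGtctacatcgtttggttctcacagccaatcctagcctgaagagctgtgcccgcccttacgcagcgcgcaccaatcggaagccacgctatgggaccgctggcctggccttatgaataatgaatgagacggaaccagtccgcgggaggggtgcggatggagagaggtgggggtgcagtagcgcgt
Nr1d1 (chr11:98775328-98775627, - strand): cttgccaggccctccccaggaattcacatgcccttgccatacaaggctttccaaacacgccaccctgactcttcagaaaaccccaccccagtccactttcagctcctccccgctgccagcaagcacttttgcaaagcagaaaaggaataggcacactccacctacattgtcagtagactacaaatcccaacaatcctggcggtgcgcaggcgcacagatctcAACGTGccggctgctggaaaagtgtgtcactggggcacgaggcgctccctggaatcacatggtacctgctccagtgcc
Arntl, upstream start (chr7:113207215-113207514, + strand): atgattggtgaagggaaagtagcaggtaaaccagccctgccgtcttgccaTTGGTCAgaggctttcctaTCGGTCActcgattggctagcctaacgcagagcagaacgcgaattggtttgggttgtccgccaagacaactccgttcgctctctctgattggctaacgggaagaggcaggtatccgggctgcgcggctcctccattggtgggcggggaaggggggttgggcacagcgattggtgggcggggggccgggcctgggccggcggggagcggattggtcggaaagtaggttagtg

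Ciart held 3 E-boxes, at -116, -58 and -44 bases from its start, counted to the first base of the motif. A single E-box stood in the upstream window of Per1 (at -166) and in each of both Tef windows (at -127 and -138), so 4 of the 14 windows, from 3 genes, held one, against 7.15% of all 32851 windows of this length. D-boxes stood in Per1 (at -24) and, as a pair, in Per3 (at -205 and -158), which is 2 of 14 windows against 3.385% of all windows. The loose ROR form TNGGTCA stood in Arntl (at -200 and -181 in the upstream window), Tef and Per3, in 4 of 14 windows, from 3 genes, against 10.96% of all windows. In the printed windows its matches read TTGGTCA or TCGGTCA on one of the strands. The downstream Arntl window, not printed, overlaps the upstream one and holds the same sites, so these are counted in both. It also held TAGGTCA, at +30. The form CACGTT stood in 1 of 14 windows, that of Nr1d1 (at -28), against 4.685% of all windows, and the CRE core stood in both Per1 windows (at -246 and -132) and in no other of the 14, against 20.81% of all windows. The windows of Clock, Nr1d2 and Dbp held none of the 5. A match is a description of the letters and was not set against binding.

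Some arrays stood apart or went against their labels. Atm was read by 2 probes, and on 1 of them the Atm-/- arrays (7.72 to 8.08) were all below the WT arrays (8.52 to 9.03). WT veh 4 stood apart by markers of choroid plexus (mean log2 signal of 5 tested genes 14.31, against 7.53 to 9.75 on the other 15 arrays) and of forebrain (10.89 over 5 genes, against 5.31 to 8.21), and Atm-/- veh 3 by markers of blood and vessels (13.65 over 6 genes, against 12.28 to 12.83) and by glucocorticoid-induced genes (14.10 over 7 genes, against 12.71 to 13.20). Against the label of male, Xist but no Y-linked gene exceeded background on 4 arrays, Atm-/- NR 4, Atm-/- veh 3, WT NR 4 and WT NR 1. Slide 1 carried the WT arrays and slide 2 the Atm-/- arrays, each with veh in row 1 and NR in row 2, so genotype and slide, and NR and row, cannot be told apart. Between 34945 and 42559 probes per array were well above background, and each Atm-/- NR array (34945 to 37817) had fewer than each Atm-/- veh array (39134 to 41905). Of 6 markers of the pineal gland and the suprachiasmatic nucleus, the seat of the central clock, Avp, Vip and Six6 did not pass the filter on dim probes. In a bulk tissue, fewer cells of a type and less RNA per cell cannot be told apart.

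All 10 genes were measured well above background on all 16 arrays. Of the 21 probes, 20 were kept, and 1 Clock probe, above background on 5 arrays, was not. A gene was read by its brightest kept probe, the other kept probes of 8 genes are given where they differ, and levels are log2 signals after quantile normalization, which do not compare 1 probe with another. Over the 16 arrays the genes spanned little: the range was smallest for Nr1d2 (13.37 to 13.82, 1.37-fold) and largest for Nr1d1 (10.54 to 11.57, 2.03-fold). Between arrays of a group, the SD ran from 0.10 (Clock) to 0.31 (Per2), where the median over all 16737 genes was 0.18.

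Under NR, the 10 genes did not move as one. Over both genotypes, Nr1d1, Per1 and Arntl fell and the brightest Tef probe rose, 4 of 10 genes at an adjusted p under 0.05 (limma, Benjamini-Hochberg over all 37253 probes), where 10.8% of all probes were called. In Atm-/- mice alone, Nr1d1 fell and that Tef probe rose, 2 of 10 genes against 9.04% of probes. In wild-type mice alone, no clock gene was called and neither was any other probe (0% of probes; limma), and 2 of 10 genes, Arntl and Nr1d1, had an unadjusted p under 0.05, against 7.62% of probes. The difference between both NR effects was not called for any of the 10 genes, nor for any probe (0%), so a difference between genotypes in the NR response was not shown for any of them. Of the 10 genes, 1 (Nr1d1) had an unadjusted p under 0.05 there, against 5.27% of probes.

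**Figure D1:**
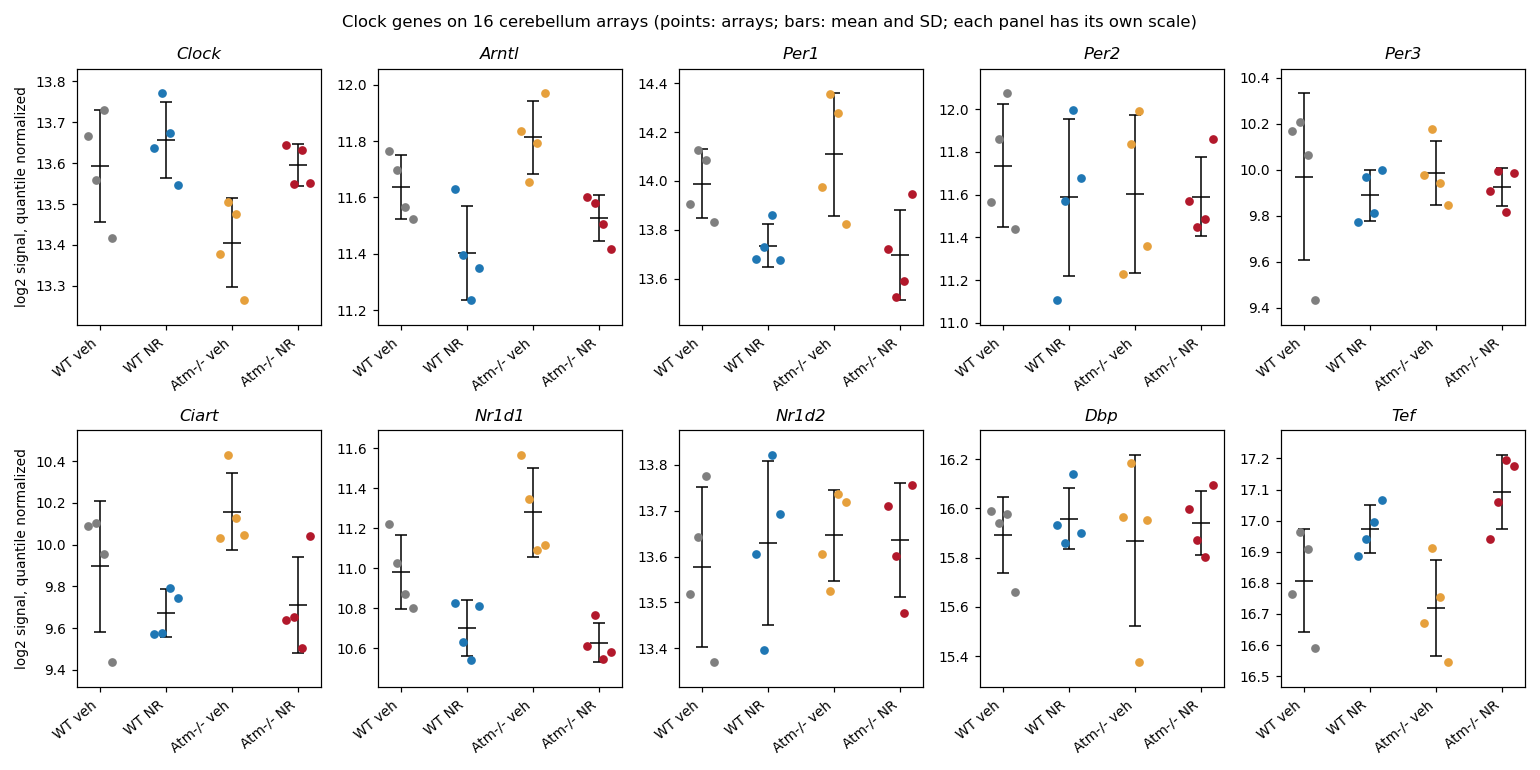
Log2 signal of the 10 clock genes (1 panel each, with its own vertical scale) on each array of the 4 groups on the horizontal axis. Points are arrays and bars the mean and SD (n = 4). The 4 Atm-/- NR arrays lie below the 4 Atm-/- veh arrays for Nr1d1 and Arntl and above them for Clock and Tef, while Per2, Nr1d2 and Dbp overlap in all groups.

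Nr1d1, the heme-binding nuclear receptor that represses Arntl, had the largest change of the 10 genes under NR in both genotypes. Its log2 signal was 11.22, 11.03, 10.87 and 10.80 on WT veh 1 to 4 and 10.83, 10.63, 10.54 and 10.81 on WT NR 1 to 4. It was 11.57, 11.35, 11.09 and 11.12 on Atm-/- veh 1 to 4 and 10.61, 10.77, 10.55 and 10.58 on Atm-/- NR 1 to 4. Every Atm-/- NR array lay below every Atm-/- veh array, while 2 of the WT NR arrays (1 and 4) lay above the lowest WT veh array. The change under NR was -0.65 on the log2 scale in Atm-/- mice (SE 0.12, 95% interval -0.91 to -0.40, adjusted p = 0.0101, limma), a level 0.635 times that of Atm-/- veh. In wild-type mice it was -0.28 (SE 0.12, adjusted p = 0.627, limma), and over both genotypes -0.47 (SE 0.085, adjusted p = 0.00779, limma). The NR effect in Atm-/- minus that in WT was -0.38 (95% interval -0.74 to -0.010, adjusted p = 0.839, limma). Nr1d1 was also 0.30 higher in Atm-/- veh than in WT veh (SE 0.12), which was not called (adjusted p = 0.288, limma), and under NR the genotypes differed by -0.076 (95% interval -0.33 to 0.18). A single probe read Nr1d1, so no other probe stands beside it. Nr1d1 and Thra overlap at their ends on opposite strands.

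The Nr1d1 fall in Atm-/- mice was as large without the arrays that stand apart: -0.72 (SE 0.12, adjusted p = 0.0115, limma) without WT veh 4 and Atm-/- veh 3. On the 12 arrays with Y-linked signal it was -0.70, with an adjusted p of 0.0503 (limma) and 1.04% of probes called, and over both genotypes -0.55 (adjusted p = 0.0273, limma). With any 1 array left out, it lay between -0.72 and -0.56 in Atm-/- mice and was called in 16 of 16 fits (adjusted p = 0.00779 to 0.0392, limma). The fits without a WT array lose no array of the groups compared, and alter the result through the shared spread and normalization alone.

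The paralog Nr1d2 did not show this fall. It lay between 13.37 and 13.78 in WT veh, 13.40 and 13.82 in WT NR, 13.52 and 13.74 in Atm-/- veh and 13.48 and 13.76 in Atm-/- NR, so all 4 groups overlapped. Its change under NR was -0.0096 in Atm-/- mice (95% interval -0.24 to 0.22) and 0.021 over both genotypes (-0.14 to 0.19), and its second probe moved by 0.032 in Atm-/- mice (adjusted p = 0.891, limma).

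Of the activators, Arntl was lower under NR. It read 11.77, 11.70, 11.57 and 11.52 on WT veh 1 to 4, and 11.63, 11.40, 11.23 and 11.35 on WT NR 1 to 4. On Atm-/- veh 1 to 4 it read 11.84, 11.65, 11.79 and 11.97, and on Atm-/- NR 1 to 4 it read 11.60, 11.58, 11.51 and 11.42. The Atm-/- groups did not overlap, while WT NR 1 lay above 2 of the WT veh arrays. Over both genotypes the change was -0.26 (SE 0.068, adjusted p = 0.0282, limma), made of -0.24 in wild-type mice (SE 0.096, adjusted p = 0.611, limma) and -0.29 in Atm-/- mice (SE 0.096, adjusted p = 0.0762, limma), where it passed without Atm-/- veh 2 (-0.34, adjusted p = 0.0465, limma). Its dimmest probe fell too over both genotypes (-0.29, adjusted p = 0.0234, limma), but there the wild-type change was the larger (-0.46 against -0.12), and the remaining probe moved by 0.0094. The call on the brightest probe over both genotypes was lost (adjusted p = 0.0507 to 0.0591, limma) when any 1 of WT veh 1, WT veh 2, WT NR 3, WT NR 4, Atm-/- veh 1, Atm-/- veh 4, Atm-/- NR 3 or Atm-/- NR 4 was left out, with changes of -0.26 to -0.23, and 8 of 16 such fits kept it. It was also lost with the mean over all kept probes (-0.18, adjusted p = 0.0953, limma) and on the 12 arrays with Y-linked signal (-0.29, adjusted p = 0.0601, limma).

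Clock, the partner of Arntl, went the other way in value: it read 13.26 to 13.51 on the Atm-/- veh arrays and 13.55 to 13.64 on the Atm-/- NR arrays, without overlap, a change of 0.19 that was not called (adjusted p = 0.158, limma). Its second probe rose over both genotypes (0.25, adjusted p = 0.0327, limma), while the brightest changed by 0.13 (adjusted p = 0.180, limma).

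With Nr1d1 and Tef, Clock and Arntl make 4 of 10 genes whose Atm-/- NR and Atm-/- veh arrays did not overlap, where 20.2% of all probes did not overlap. Between WT NR and WT veh, 0 of 10 genes did not overlap, against 4.09% of probes. Between all 8 NR and all 8 veh arrays, 0 of 10 genes did not overlap by their brightest probe, against 1.12% of probes.

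**Figure D2:**
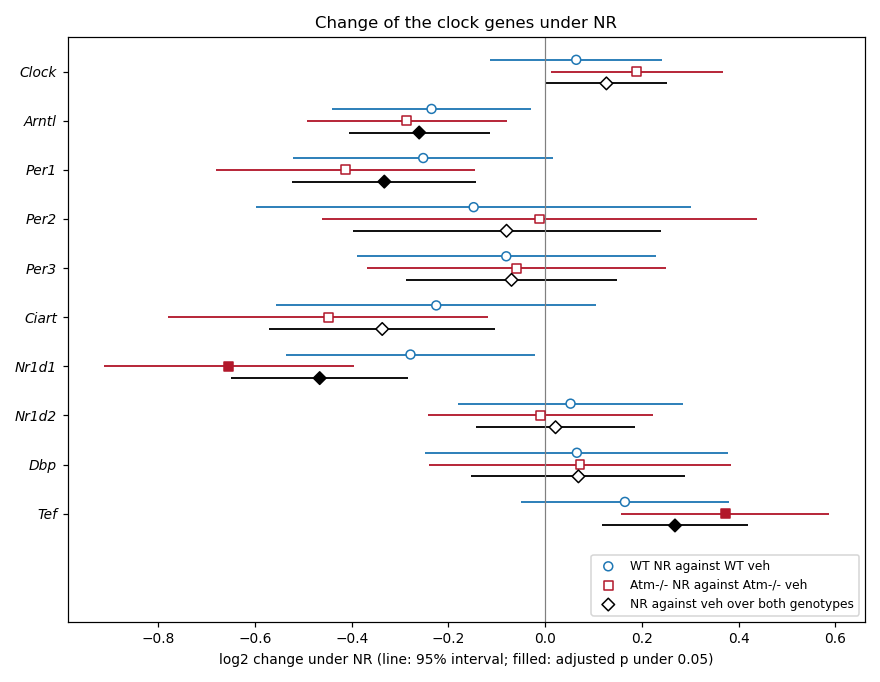
Log2 change under NR (horizontal axis) of the 10 clock genes (vertical axis) in wild-type mice, in Atm-/- mice and over both genotypes, with 95% intervals from limma. Filled symbols mark an adjusted p under 0.05: Nr1d1 and Tef in Atm-/- mice, and Nr1d1, Arntl, Per1 and Tef over both genotypes.

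Among the repressors, Per1, the period gene that also responds to light and glucocorticoids through its promoter, was lower under NR. It read 13.91, 14.13, 14.08 and 13.83 on WT veh 1 to 4 and 13.68, 13.73, 13.86 and 13.67 on WT NR 1 to 4. On Atm-/- veh 1 to 4 it read 13.98, 14.36, 14.28 and 13.83, and on Atm-/- NR 1 to 4 it read 13.72, 13.53, 13.59 and 13.94. A single array of each NR group (WT NR 3 and Atm-/- NR 4) reached into the range of its veh group. The change was -0.33 over both genotypes (SE 0.089, adjusted p = 0.0306, limma), -0.41 in Atm-/- mice (SE 0.13, adjusted p = 0.0544, limma) and -0.25 in wild-type mice (SE 0.13, adjusted p = 0.685, limma). The call over both genotypes was lost (adjusted p = 0.0526 to 0.0628, limma, changes of -0.33 to -0.30) without any 1 of WT veh 2, WT veh 3, WT NR 2, WT NR 4, Atm-/- veh 3, Atm-/- NR 2 or Atm-/- NR 3, and on the 12 arrays with Y-linked signal (-0.32, adjusted p = 0.0952, limma). The change in Atm-/- mice passed (adjusted p = 0.0431 to 0.0477, limma) without WT veh 4, Atm-/- veh 4 or Atm-/- NR 4, with normexp background correction (adjusted p = 0.0353, limma) and with only the probes detected on all 16 arrays (adjusted p = 0.0432, limma). WT veh 4 is in neither group, and without it the change stayed at -0.41. The change was not called in 22 of 27 alternative fits. These included the 12 arrays with Y-linked signal (-0.44, adjusted p = 0.112, limma) and only the arrays of the groups compared (-0.42, adjusted p = 0.119, limma). Of 7 glucocorticoid-induced genes, whose mean level was highest on Atm-/- veh 3, 5 were lower and 2 higher in value under NR over both genotypes. A single one, Ddit4, was called, 1 of 7 against 10.8% of all probes (-0.52, adjusted p = 0.0473, limma), with -0.77 in Atm-/- mice (adjusted p = 0.0426, limma). The part of that list in the Per1 change was not tested, and without Atm-/- veh 3 and WT veh 4 the Per1 change over both genotypes was -0.33 (adjusted p = 0.0412, limma).

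Ciart (also known as CHRONO), a repressor of the CLOCK and BMAL1 pair, was close to Per1 in pattern and was not called. It read 10.09, 10.11, 9.95 and 9.44 on WT veh 1 to 4 and between 9.57 and 9.79 in WT NR. It read between 10.03 and 10.43 in Atm-/- veh, and 9.64, 9.65, 9.51 and 10.04 on Atm-/- NR 1 to 4. The low WT veh value is the array with choroid plexus and forebrain markers, and the high Atm-/- NR value, on array 4, lay inside the Atm-/- veh range. Its change was -0.45 in Atm-/- mice (SE 0.15, adjusted p = 0.0814, limma), or adjusted p = 0.0312 (limma) without WT veh 4, an array of neither group compared. Over both genotypes it was -0.34 (SE 0.11, adjusted p = 0.0623, limma), and without WT veh 4 and Atm-/- veh 3 it was -0.42 (SE 0.095) and passed the test (adjusted p = 0.0192, limma). It also passed without WT veh 4 (-0.41, adjusted p = 0.0135, limma) or without Atm-/- NR 4 (-0.39, adjusted p = 0.0401, limma) alone, and with scaling to the 75th percentile (-0.35, adjusted p = 0.0487, limma). Most alternative fits left Ciart uncalled, 22 of 26 over both genotypes and 26 of 27 in Atm-/- mice. Over both genotypes these included the mean over all kept probes (-0.13, adjusted p = 0.396, limma) and the 12 arrays with Y-linked signal (-0.39, adjusted p = 0.106, limma). The dimmer Ciart probe moved by 0.071 in the other direction (adjusted p = 0.683, limma).

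Per2 and Per3, the other period genes, overlapped in all groups. Per2 spread widely within groups, from 11.11 to 12.00 in WT NR and from 11.23 to 11.99 in Atm-/- veh, so the interval of its NR change over both genotypes ran from -0.40 to 0.24. Per3 changed by -0.070 (95% interval -0.29 to 0.15), and its dimmer probe by -0.42 without a call (adjusted p = 0.0586, limma).

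Dbp and Tef, the PAR bZIP factors that carry the rhythm to output genes, differed from each other. Dbp lay between 15.66 and 15.99 in WT veh, 15.86 and 16.14 in WT NR, 15.37 and 16.18 in Atm-/- veh and 15.80 and 16.10 in Atm-/- NR. Its change under NR was 0.069 over both genotypes (95% interval -0.15 to 0.29), and its second probe changed by -0.044. The lowest Dbp values were on Atm-/- veh 3 (15.37) and WT veh 4 (15.66), the arrays that stand apart by marker genes.

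Tef gave opposite answers on its probes. The brightest probe read 16.77, 16.96, 16.91 and 16.59 on WT veh 1 to 4 and 16.89, 16.94, 17.00 and 17.07 on WT NR 1 to 4. It read 16.67, 16.91, 16.75 and 16.54 on Atm-/- veh 1 to 4 and 16.94, 17.06, 17.19 and 17.17 on Atm-/- NR 1 to 4. All Atm-/- NR arrays thus lay above all Atm-/- veh arrays. The change was 0.37 in Atm-/- mice (SE 0.10, adjusted p = 0.0352, limma), 0.16 in wild-type mice (SE 0.10, adjusted p = 0.750, limma) and 0.27 over both genotypes (SE 0.071, adjusted p = 0.0295, limma). In Atm-/- mice the call was lost without any 1 of Atm-/- veh 1, 3 or 4 or Atm-/- NR 2, 3 or 4 (0.31 to 0.38, adjusted p = 0.0610 to 0.105, limma), and over both genotypes without WT NR 3, WT NR 4, Atm-/- veh 1, Atm-/- veh 4, Atm-/- NR 3 or Atm-/- NR 4 (0.24 to 0.26, adjusted p = 0.0556 to 0.0620, limma). On the 12 arrays with Y-linked signal neither was called (0.35 and 0.26, adjusted p = 0.145 and 0.123, limma), nor was the change in Atm-/- mice with only the arrays of the groups compared (0.38, adjusted p = 0.0648, limma).

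The second Tef probe, designed on another RefSeq transcript of the gene, fell. It lay between 14.26 and 14.49 in WT veh and between 14.40 and 14.63 in Atm-/- veh, against 14.06 to 14.25 in WT NR and 14.15 to 14.22 in Atm-/- NR. All 8 NR arrays lay below all 8 veh arrays. The change was -0.26 over both genotypes (adjusted p = 0.00939, limma) and -0.33 in Atm-/- mice (adjusted p = 0.0180, limma). The third probe, on the same transcript as the second, was dim, with 10.45 on WT NR 1 and 7.36 to 8.31 on all other arrays, and changed by 0.37 over both genotypes (adjusted p = 0.516, limma). As both bright probes were called with opposite signs, the level of Tef as a gene has no direction here, and the mean over its probes changed by 0.073 in Atm-/- mice (adjusted p = 0.826, limma) and by 0.12 over both genotypes (adjusted p = 0.556, limma). RefSeq likewise gives 2 start windows for Tef, and which of them belongs to which probe was not tested. Over all clock genes, 6 of 10 other kept probes pointed the other way from the brightest in Atm-/- mice, and 5 of 10 over both genotypes.

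**Figure D3:**
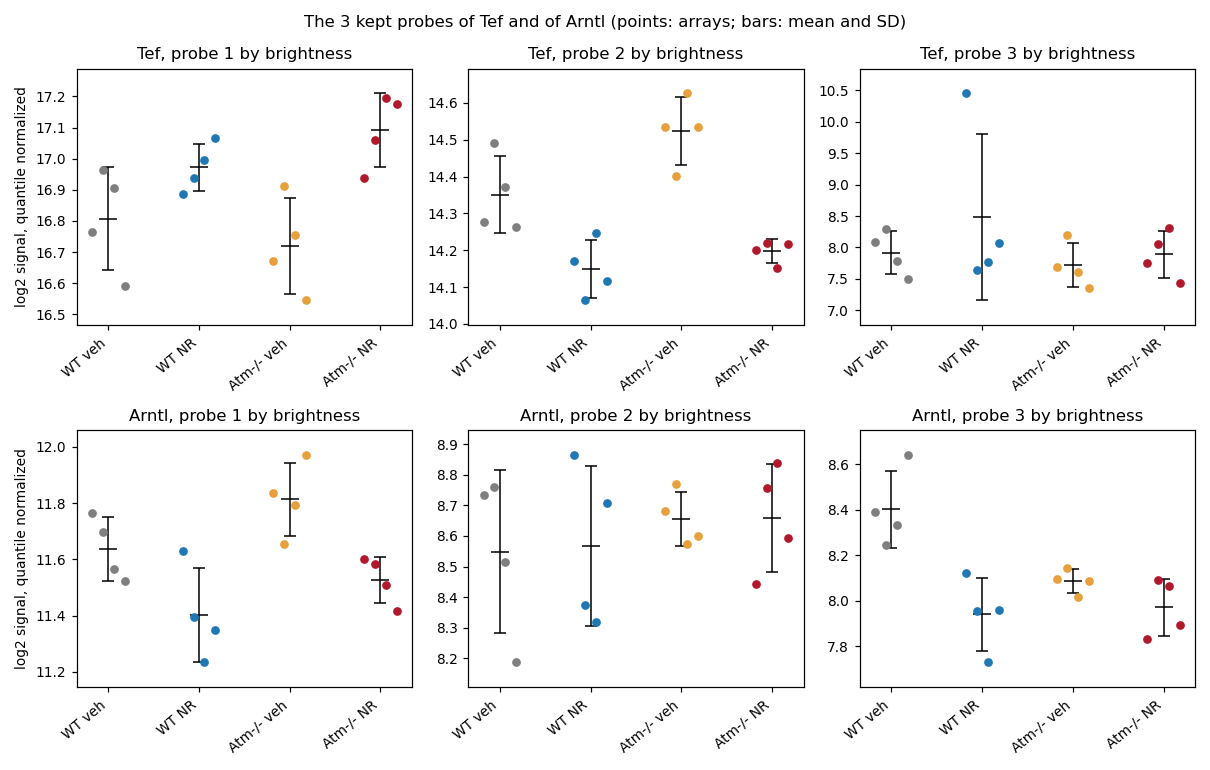
Log2 signal (vertical axes, each with its own scale) of the 3 kept probes of Tef (top) and of Arntl (bottom), in order of brightness, on each array of the 4 groups. Points are arrays and bars the mean and SD (n = 4). The brightest Tef probe rises and the second falls under NR. The brightest and dimmest Arntl probes have lower means under NR. Arrays of NR and veh still overlap in WT for the brightest and in Atm-/- for the dimmest. The middle Arntl probe overlaps in both genotypes.

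Between genotypes, none of the clock genes was called. Without NR, 0 of 10 genes passed (limma, 0.0537% of probes called), the smallest adjusted p was 0.288 (limma), and 2 genes, Nr1d1 (0.30) and Clock (-0.19), had an unadjusted p under 0.05, against 14.6% of probes. The groups did not overlap for 0 of 10 genes, against 7.6% of probes. Under NR, 0 of 10 genes were called (0.0537% of probes) or had an unadjusted p under 0.05, against 5.21% of probes. Over both treatments 0 of 10 were called (0.201% of probes) and 1 gene, Arntl, at 0.15 higher in Atm-/-, had an unadjusted p under 0.05, against 12.9% of probes. The median size of the genotype difference was 0.052 over the 10 genes in that comparison, against 0.092 over all genes. The interval for Dbp ran from -0.24 to 0.20 and that for Per2 from -0.38 to 0.25.

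In size, the clock genes were near the rest of the array. The median absolute change of the 10 genes under NR was 0.24 in Atm-/- mice and 0.19 over both genotypes, against 0.20 and 0.14 over all 16737 genes. The signed medians were -0.035 and -0.075, against 0.036 and 0.013 over all genes.

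Other genes of the loop, from a list written with earlier results of these data known, did not pass the test. Of 11 genes, 9 were tested (Npas2, a paralog of Clock, did not pass the filter, and Rorb had no named probe here), and 0 were called in any of the 7 comparisons. Cry2, the cryptochrome partner of the PER proteins, had the smallest adjusted p under NR, 0.17 over both genotypes (adjusted p = 0.0790, limma). Its relative Cry1 changed by 0.12 (adjusted p = 0.480, limma), and Bhlhe40, a repressor at E-boxes, by -0.21 (adjusted p = 0.176, limma). Rora, the activator that competes with the NR1D receptors at ROR elements, changed by 0.17 (adjusted p = 0.273, limma). In Atm-/- mice 7 of the 9 were higher and 2 lower under NR, with a median of 0.14 against 0.036 over all genes. Of 11 kinases, ligases and partners of clock proteins, 0 were called in any comparison. Of 6 genes with rhythmic output in many tissues, 0 were called, and 6 of 6 were lower in value under NR in Atm-/- mice (median -0.13, against 0.036 over all genes). In wild-type mice 6 of 6 were lower (median -0.051, against -0.0060), or 4 of 6 after normexp background correction. Nampt is in this list and changed by -0.15 over both genotypes (adjusted p = 0.161, limma), from 10.56 to 10.91 on the veh arrays to 10.43 to 10.76 on the NR arrays.

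The remaining lists describe the tissue and the state of the animals. Of 8 immediate early genes, 0 were called in any comparison. Over both genotypes, where 10.8% of all probes were called, the Purkinje cell markers had 1 called gene of 6, Car8 (1.26, adjusted p = 0.00656, limma), and forebrain had 1 of 5, Neurod6 (-0.53, adjusted p = 0.00569, limma). Granule cells (6 genes), Bergmann glia and astrocytes (6), oligodendrocytes (6), microglia (5), choroid plexus (5), blood and vessels (6) and pineal gland and suprachiasmatic nucleus (3) had 0 called genes in any comparison. The mean level of granule cell markers lay between 15.34 and 15.45 in Atm-/- veh, against 15.27 to 15.43 in Atm-/- NR, and that of Purkinje cell markers between 15.30 and 15.72, against 15.56 to 15.69. Their part in the changes of Nr1d1, Per1 and Arntl was not tested.

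Within the groups, some clock genes varied together from array to array. After the 4 group means were removed, Pearson's r over the 16 arrays was 0.82 for Per3 and Ciart, 0.80 for Per1 and Per2 and 0.70 for Per1 and Ciart. All 6 pairs of Per1, Per2, Per3 and Ciart were positive, with a median of 0.65, and with the arrays WT veh 4 and Atm-/- veh 3 left out they were again 6 of 6 with a median of 0.64. These are the period genes and their fellow repressor, but Tef, an activator, also gave 0.65 to 0.69 with each of them. Clock gave 0.38 to 0.54 with them. Per1, Per3 and Ciart are among the promoters printed here, of which the Per3 window held no E-box. Over all 10 genes, 35 of 45 pairs were positive and 12 were above 0.5, and without the same pair of arrays 26 of 45 were positive. Over all pairs of the 16737 genes, 50.9% were positive and 8.91% above 0.5. The values of a pair share the array, its hybridisation and its normalization, and the correlations are given as a description.

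Arntl had mostly negative values within groups. Of its 9 pairs, 2 were positive (median -0.12), with -0.67 for Per2 and -0.54 for Per1, but -0.19 for Ciart and 0.065 for Per3. Over the 16 arrays with the group means kept in, it was positive with Ciart (0.48), Per1 (0.34) and Per3 (0.20) and negative with Per2 (-0.34). Without WT veh 4 and Atm-/- veh 3 the median was -0.55 and 1 of 9 was positive, and the value for Per2 was -0.91. Arntl and its repressor Nr1d1 gave a positive r of 0.76 over the 16 arrays (Spearman's rho 0.82), 0.90 on slide 1 and 0.73 on slide 2, and 0.39 once group means were removed. Both were lower in the NR groups. Per1 and Ciart gave 0.83 over the 16 arrays (rho 0.78), 0.73 on slide 1 and 0.91 on slide 2.

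**Figure D4:**
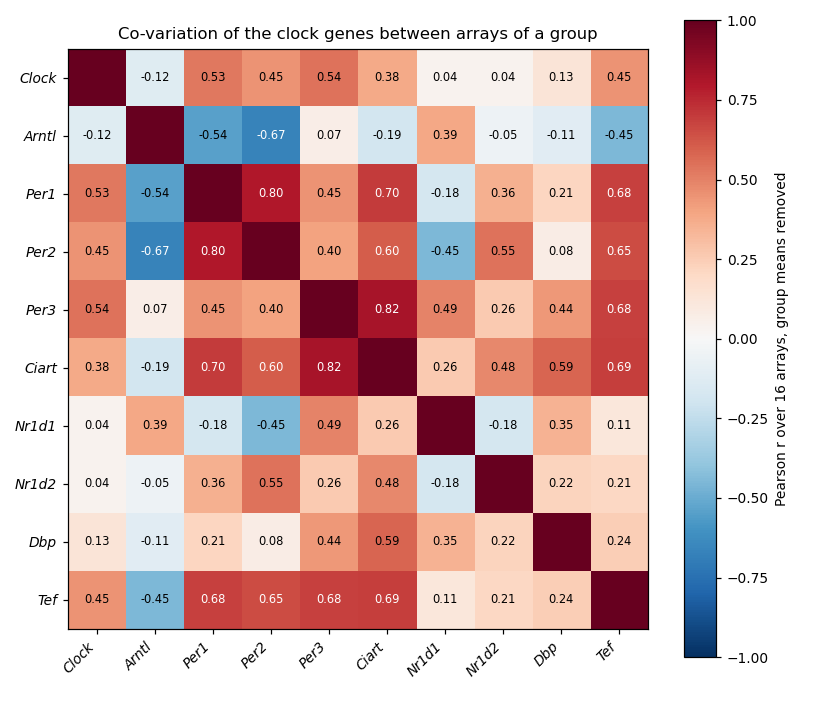
Pearson's r between the clock genes over 16 arrays after removal of the 4 group means, for each pair of genes on both axes, with red for positive and blue for negative values. All 10 pairs of Per1, Per2, Per3, Ciart and Tef lie between 0.40 and 0.82, some pairs with other genes are as high (Dbp and Ciart 0.59, Nr1d2 and Per2 0.55), and Arntl has values from -0.67 to 0.39.

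Whether the other genes followed Dbp, an output gene with a strong daily rhythm in many tissues, was tested in 1 model with the 4 group means and the Dbp level of the array. None of the 9 other genes was called (0 of 9, limma, against 0.00537% of 37251 probes). Ciart had the steepest slope, 0.62 per unit of Dbp (SE 0.26, adjusted p = 0.498, limma). It was the single gene of these with an unadjusted p under 0.05, where 3337 of the 37251 probes had one. Between Dbp and Ciart, r was 0.28 over 16 arrays and 0.67 without WT veh 4 and Atm-/- veh 3, which had the Dbp values farthest from the median, and for Per1 it moved from -0.00094 to 0.69. Once group means were removed, r for Ciart was 0.59 on 16 arrays and 0.82 without those 2, and for Per1 0.21 and 0.79. With group means kept in, r was 0.60 on slide 1 and 0.18 on slide 2 for Ciart, and 0.23 and -0.068 for Per1.

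**Figure D5:**
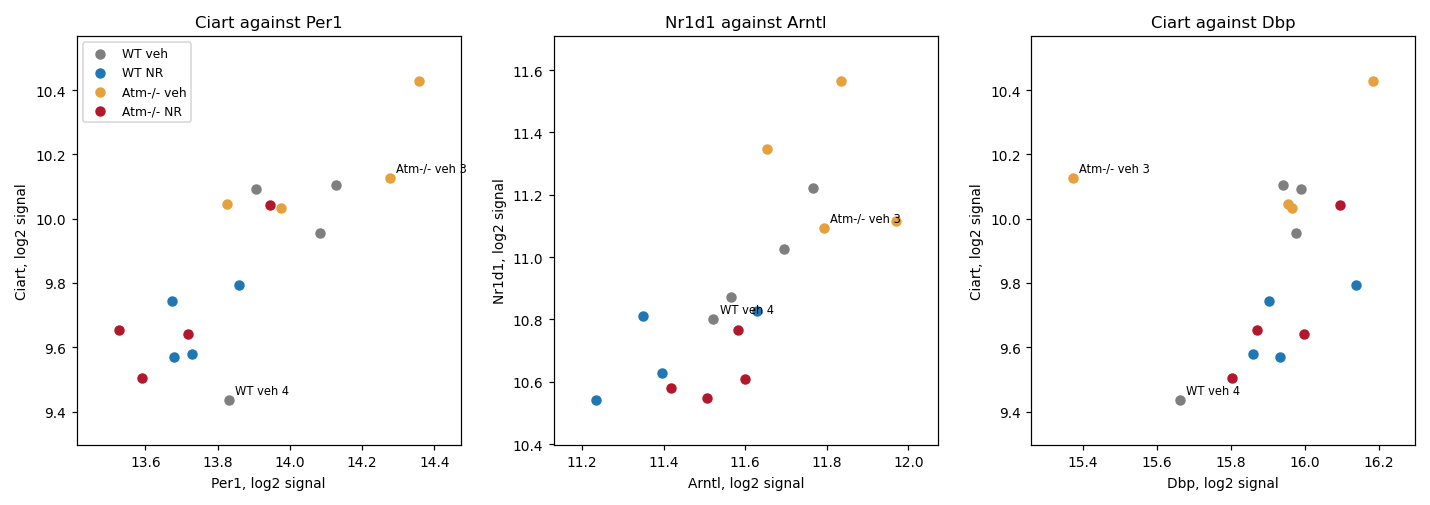
Log2 signal of Ciart against Per1, of Nr1d1 against Arntl and of Ciart against Dbp on each of the 16 arrays, coloured by group. WT veh 4 and Atm-/- veh 3 are named, and on the Dbp axis they are the lowest arrays, at 15.66 and 15.37.

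The mean of Per1, Per2, Per3, Nr1d1, Nr1d2, Dbp, Tef and Ciart on an array, each as its difference from its own mean over the 16 arrays, ran from -0.26 (WT veh 4) to 0.27 (Atm-/- veh 2). Among the genes outside the set with the highest r to it over the 16 arrays were 4930429H19Rik (0.84), Pcca (0.82), Nrg3os (0.81) and 2410080I02Rik (0.80), and those with the lowest were St6gal2 (-0.80), Ccdc151 (-0.79), Srf (-0.78), Tubd1 (-0.78) and Psrc1 (-0.78).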

How the data were processed

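For each of 16 arrays of cerebellar RNA (200 ng per labelling, Cy3), the authors deposited the intensity of each spot from Agilent Feature Extraction 12.0.3.1 after subtraction of the local background, without normalization between arrays. The authors also deposited a score for each spot as z-scores, used here as an alternative. Their genome build is not given in the sources used here. Groups and replicate numbers came from the labels.

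Probes were named by accession through a RefSeq table (GRCm38.p6), which named 32994 of 56605. Probes well above background (at least 0.5 of their spots) on each of the 4 arrays of any group passed, their log2 signal was quantile normalized, outlier spots were set aside and the spots of a probe averaged, which left 37253 probes. A gene was read by its brightest kept probe. The model was fitted in R 4.3.3 with limma (version 3.58.1) and data.table (version 1.17.8), with 4 group means, 12 residual degrees of freedom and Benjamini-Hochberg adjustment over all probes. Filtering and quantile normalization can shift dim probes, and the number of arrays limits the precision. The models were tested on simulated data.

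The clock genes, the other lists and the rule for naming genes (all clock genes, any listed gene called in a comparison, the loop genes and Nampt, and the 5 genes most and least like the mean of 8 clock genes) were chosen with earlier results of these data known. A gene that this rule names is not reported here. Purkinje cell, granule cell, glial, microglial, choroid plexus, blood, forebrain, pineal and suprachiasmatic, glucocorticoid and immediate early lists describe the tissue. Alternatives were scaling to the 75th percentile, normexp (offset 50), the z-scores, other filters, the mean over probes and arrays left out. The replicate number or slide as a block and an equal-variance t-test on the z-scores were also run.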

Additional observations from a re-analysis of the deposited data

Results flagged for a closer look

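Dbp on WT veh 4 (log2 signal 15.66) lay far below the other WT veh arrays, of which the nearest read 15.94. The gap was 0.850 of the range of the group, above Dixon's critical value for 4 samples. Over 40 sets of 4 arrays (10 genes in 4 groups), this was 1 such value, where chance gives about 1 in 20. WT veh 4 is also the array with the highest choroid plexus and forebrain marker levels (14.31 and 10.89), and their part in its Dbp level was not tested.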

How the results depend on the processing

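In the 2 comparisons with a called clock gene, 17 of 57 recomputed counts moved by over 1.5 times. No called change reversed its direction under any alternative that was run. Nr1d1 kept its call over both genotypes under every alternative fit (adjusted p = 0.00551 to 0.0273, limma), and in Atm-/- mice under 26 of 27, all but the 12 arrays with Y-linked signal (adjusted p = 0.0503, limma).

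For Atm-/- NR against Atm-/- veh (2 genes reported), the count was 1 with the mean over all kept probes of a gene (Tef lost). It was 0 on the 12 arrays with Y-linked signal and 1 with only the arrays of the groups compared. With 1 array left out it ran from 1 to 4. An equal-variance t-test on the z-scores gave 6 at an unadjusted p of 0.05 or less, or 1 after Benjamini-Hochberg adjustment. In limma, 6 of the 10 genes had an unadjusted p under 0.05 there, against 27.3% of probes. The paper's further limits on z-ratio, false discovery rate and ANOVA were not applied, so these are not counts by its criteria. For NR against veh over both genotypes (4 genes), it was 1 on the 12 arrays with Y-linked signal and ran from 1 to 5 with 1 array left out. For WT NR against WT veh (0 genes), the t-test on the z-scores gave 2 at that unadjusted p, and 0 after adjustment. That t-test gave 0 genes in the genotype comparisons. The counts of 0 in the genotype comparisons, the difference between NR effects and the co-variation with Dbp stayed 0 in each fit with limma. With Ciart in the place of Dbp, 0 of the 8 genes other than Dbp were called. A missing call is not an absence of co-variation, as r to Ciart within groups ran from -0.19 (Arntl) to 0.82 (Per3). On the 12 arrays 1.04% of all probes were called in Atm-/- mice, and the cause of the other moved counts was not tested. The share of all probes called in the other alternative fits is not given here, so their counts are not set against it.

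Replicate numbers did not pair the arrays (correlations of deviations between same-numbered arrays from -0.15 to 0.20). With the replicate number as a block, the counts were 2 in Atm-/- mice, 4 over both genotypes and 0 in all other comparisons. The slide as a block gives the same model for NR as the 4 group means, because each slide holds 1 genotype. Its NR counts of 2 and 4 were thus fixed in advance, and genotype then has no value. That fit is included in the numbers of alternative fits given here and adds nothing to them. Leaving out WT veh 4 and Atm-/- veh 3 together, and Ciart as anchor, were chosen after the data were seen. Of 10 clock genes, 5 were called over both genotypes without those 2 arrays, with Ciart added to the 4 reported. The share of all probes called in that fit is not given here, so the counts of 5 and 4 are not compared.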
